A study of Homo sapiens with 5 samples.

Results

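The genes described here are 10 enzymes, reductases and channels that set how readily membrane lipids oxidise in ferroptosis outside the glutathione path. They are ACSL4, ACSL3, LPCAT3, POR, AIFM2, DHODH, GCH1, AGPS, FAR1 and VDAC2, taken by symbol from the tables of the series. Each of the 10 symbols matched 1 row of the 58929 genes listed, and all 10 passed the filter on low counts in both fits across genes. Ferroptosis is a form of cell death in which iron drives the peroxidation of phospholipids that carry polyunsaturated acyl chains. Cells place such chains in membranes through acyl-CoA synthetases, lysophospholipid acyltransferases and the peroxisomal ether lipid pathway, and electron donors such as POR help to oxidise them. Reduced coenzyme Q and tetrahydrobiopterin trap lipid radicals, and DHODH, AIFM2 and GCH1 are known for supplying them beside the peroxidase GPX4.

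The cells were A549, a long-established line from a human lung adenocarcinoma, and they gave 5 libraries that the study's design text calls ribosome footprint profiling. The sh control (1 library) stands beside 2 libraries with RBMS1, an RNA-binding protein, stably depleted, 1 for each of the hairpins sh1088 and sh1196. The pCDH control (1 library) stands beside 1 library with RBMS1 stably overexpressed, named R1A. All 5 cultures received cycloheximide at 100 ug/mL for 15 min before lysis, which holds ribosomes on mRNA, and lysates were digested with RNase I for 5 min. The sources used here do not say whether each line is 1 clone or a pool of transduced cells. The 2 knockdown libraries are not stated to come from separate cultures beyond their hairpins, so the p-values rest on the spread seen between these libraries alone, and part of it may be technical.

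Library totals ran from 10327747 to 13980843 expected counts, and nuclear protein-coding genes held between 37.7% and 66.3% of them, least in the sh control and sh1088. Levels are in CPM, counts scaled to library size by TMM over the 5 libraries, with 95% counting intervals that cover counting error only. RBMS1 itself stood at 31.0 CPM for sh control, 18.3 for sh1088, 13.4 for sh1196, 24.7 for pCDH control and 37.0 for R1A. By CPM it was thus lower in both hairpin libraries and higher in R1A, each against its own control. By the authors' TPM the hairpin libraries were instead higher, at 3.70 and 4.20 against 1.59. R1A and the pCDH control were close by TPM, at 12.56 and 11.57, and in counts before scaling, at 439 and 431. The 5 epithelial markers summed to between 945 and 2140 CPM and the 4 markers of A549 to between 4769 and 10480, while the endothelial markers summed to at most 1.18 CPM and the fibroblast markers to at most 9.82. The immune markers summed to between 28.3 and 109 CPM through CD68 and CD14, and PTPRC and CD3E were at 0 counts in all 5 libraries. The lung lineage gene NKX2-1 was also at 0 counts in all 5. A library averages over all cells of a culture, so fewer cells that express a gene and less of it per cell cannot be told apart. The labels give total RNA as the molecule of all 5 libraries, while the study text and the nuclease step of the protocol speak of ribosome-protected fragments. In footprints a level holds both the amount of an mRNA and the ribosomes on it, and in total RNA the amount alone.

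Ribosomes are known to begin at a start codon, so the 24 bases around the annotated one are shown for 8 of the genes before the values. They were read from 1 transcript per gene of GENCODE release 29, on the strand of the mRNA, and where ribosomes began in these cells was not tested. Capitals mark the ATG.

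ACSL4: agcctttccactATGaaacttaag
ACSL3: ttttgagtacttATGaataaccac
LPCAT3: cccggagttaagATGgcgtcctca
POR: tgccagcgtttcATGatcaacatg
DHODH: gacggaaggagcATGgcgtggaga
AGPS: aaggcggtagccATGgcggaggcg
FAR1: tctaggatcaaaATGgtttcaatc
VDAC2: cgcggcctcgccATGgcgacccac

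The bases that commonly flank a strong start are a purine at the third base before the ATG and a G right after it. A purine stood at that place in 6 of these 8 genes (ACSL4, LPCAT3, DHODH, AGPS, FAR1 and VDAC2), where 85.1% of 18556 protein-coding genes had one. A G followed the ATG in 5 of them (LPCAT3, DHODH, AGPS, FAR1 and VDAC2), where 50.8% of all genes had it. Both were found in 5 of the 8, against 42.7% of all genes, and ACSL3 and POR had neither. These matches describe the letters only. No value below depends on them.

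ACSL4 (ENSG00000068366.19), which ligates coenzyme A to long polyunsaturated fatty acids, lies on the minus strand of chromosome X (109624244 to 109733403), and its start codon is at chrX:109683484-109683486. These positions, like the others below, are those of GENCODE 29 on GRCh38. ACSL4 stood at 121.8 CPM for sh control (977 counts), 106.1 for sh1088, 93.0 for sh1196, 20.4 for pCDH control (356 counts) and 158.5 for R1A (1880 counts). The pCDH control was the low library, and the other 4 lay within a factor of 2 of each other, although no 2 of the 5 counting intervals overlapped. The knockdown mean was 99.5 ± 9.27 CPM (SD, n = 2). Its log2 change against the sh control was -0.26 (SE 0.47, edgeR adjusted p = 0.933), with both hairpins lower. R1A was 7.78-fold higher than the pCDH control, a log2 ratio of 2.96 (2.80 to 3.13). With the sh control as its base instead, R1A was 1.33-fold higher, a log2 ratio of 0.41 (0.30 to 0.52). The size of the overexpression ratio thus rested on the pCDH control library, in which ACSL4 was 5.69-fold lower than in the sh control.

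ACSL3 (ENSG00000123983.14), which activates monounsaturated fatty acids and serves lipid droplets, lies on chromosome 2 (222860934 to 222944639, plus strand, start codon at chr2:222908773-222908775). Its levels were 193 CPM for sh control, 221 for sh1088, 272 for sh1196, 237 for pCDH control and 356 for R1A. R1A was the highest library and the sh control the lowest, a span of 1.84-fold. In knockdown the log2 change was 0.38 (SE 0.52, edgeR adjusted p = 0.907), with both hairpins higher. The overexpression log2 ratio was 0.60 (0.53 to 0.66), and against the sh control it was 0.91 (0.83 to 1.00). ACSL3 therefore differed from ACSL4 most in the pCDH control, where ACSL3 held a middle place and ACSL4 its lowest.

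LPCAT3 (ENSG00000111684.11), the acyltransferase that inserts polyunsaturated chains into lysophospholipids, lies on chromosome 12 (6976186 to 7018510, minus strand, start codon at chr12:7018422-7018424). It stood at 39.3 CPM for sh control, 41.0 for sh1088, 60.1 for sh1196, 108 for pCDH control and 59.6 for R1A. The pCDH control was alone at the top, and the sh control and sh1088 were not separated by their counting intervals, nor were sh1196 and R1A. Knockdown gave a log2 change of 0.40 (SE 0.48, edgeR adjusted p = 0.894), with a log2 ratio of 0.11 (-0.11 to 0.33) for sh1088 and 0.67 (0.48 to 0.87) for sh1196. R1A was lower than the pCDH control at -0.85 (-0.98 to -0.73), yet higher than the sh control at 0.63 (0.44 to 0.83). The direction thus turned with the control used. EMG1 and C1S overlap this gene on the opposite strand, with up to 714 and 738 counts in a library, and the sources used here do not state whether counting used strand.

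POR (ENSG00000127948.16), which passes electrons from NADPH to microsomal cytochromes and can also feed lipid peroxidation, lies on chromosome 7 (75899200 to 75986855, plus strand, start codon at chr7:75953993-75953995). Its levels were 40.5 CPM for sh control, 47.4 for sh1088, 71.3 for sh1196, 137 for pCDH control and 90.5 for R1A. Their order was that of LPCAT3 except that R1A stood above sh1196. Of the 45 pairs of these 10 genes, POR and LPCAT3 had the most alike pattern over the 5 libraries, a root mean square difference of 0.18 in centred log2 CPM. In knockdown it was 0.58 (SE 0.49, edgeR adjusted p = 0.858) on the log2 scale, with both hairpins higher. R1A stood at -0.60 (-0.70 to -0.49) against the pCDH control and at 1.19 (1.01 to 1.37) against the sh control. The small nucleolar RNA gene SNORA14A lies within POR on the same strand and had 99 counts in the sh control and 15 to 52 in the others. TMEM120A overlaps POR on the other strand, with up to 1110 counts, in the pCDH control.

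**Figure D1:**
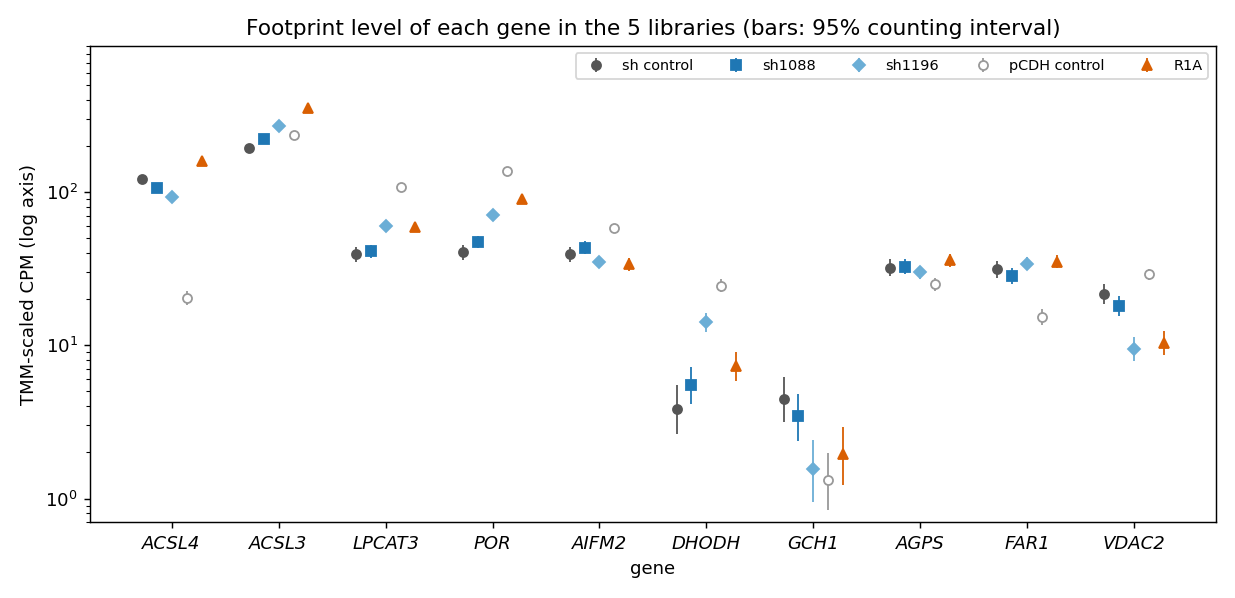
TMM-scaled CPM (log axis) of each of the 10 genes in the 5 libraries, 1 point per library, with bars for the 95% counting interval. ACSL4 is near 20 CPM in the pCDH control and between 93.0 and 158.5 in the other libraries, while LPCAT3, POR, AIFM2, DHODH and VDAC2 are highest in the pCDH control.

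Among the reductases of coenzyme Q, AIFM2 (ENSG00000042286.15, also called FSP1) is the lipid-anchored enzyme that regenerates reduced quinone at the plasma membrane. Its gene lies on chromosome 10 (70098223 to 70132934, minus strand). AIFM2 stood at 39.4 CPM for sh control, 43.3 for sh1088, 34.9 for sh1196, 58.6 for pCDH control and 33.7 for R1A. The pCDH control lay above the rest, and the counting intervals of the sh control overlapped those of sh1088, sh1196 and R1A. Its log2 change in knockdown was 0.02 (SE 0.45, edgeR adjusted p = 0.992), and the hairpins went opposite ways, at 0.18 (-0.03 to 0.40) and -0.11 (-0.33 to 0.10). R1A was lower than the pCDH control at -0.79 (-0.96 to -0.62), while against the sh control the ratio was -0.20 with an interval that spans 0 (-0.41 to 0.02).

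DHODH (ENSG00000102967.12), the inner mitochondrial membrane enzyme of pyrimidine synthesis that hands its electrons to coenzyme Q, lies on chromosome 16 (72008588 to 72027664, plus strand, start codon at chr16:72008765-72008767). It had 31 counts for sh control (3.86 CPM, 2.62 to 5.48), 53 for sh1088 (5.52 CPM), 182 for sh1196 (14.1 CPM), 427 for pCDH control (24.5 CPM) and 87 for R1A (7.33 CPM). The intervals of the sh control and sh1088 overlapped, and so did those of sh1088 and R1A, while sh1196 and the pCDH control stood above all of these. DHODH had the largest knockdown change of the 10 genes at 1.38 (log2, SE 0.73, edgeR adjusted p = 0.828), with both hairpins higher. That value was uneven, at 0.56 (-0.11 to 1.25) for sh1088 and 1.93 (1.37 to 2.53) for sh1196. R1A was 3.33-fold lower than the pCDH control, a log2 ratio of -1.74 (-2.08 to -1.40), and higher than the sh control at 0.95 (0.35 to 1.59). Between the controls the log2 ratio was 2.73 (2.21 to 3.31), higher in the pCDH control.

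GCH1 (ENSG00000131979.19), the first and rate-limiting enzyme of tetrahydrobiopterin synthesis, lies on chromosome 14 (54842008 to 54902852, minus strand). It had the fewest counts of the set in every library but the sh control, where DHODH had fewer: 36 for sh control (4.49 CPM, 3.14 to 6.21), 33 for sh1088 (3.44 CPM), 20 for sh1196 (1.55 CPM), 23 for pCDH control (1.32 CPM) and 23 for R1A (1.94 CPM). The sh control lay above sh1196, the pCDH control and R1A by these intervals, and the latter 3 were not separated. For knockdown the log2 change was -0.82 (SE 0.81, edgeR adjusted p = 0.870), at -0.34 (-1.07 to 0.38) for sh1088 and -1.47 (-2.34 to -0.65) for sh1196. The overexpression log2 ratio was 0.56 with an interval from -0.34 to 1.46, so a difference was not detectable at this depth.

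For the ether lipids, AGPS makes the ether bond in peroxisomes and FAR1 supplies the fatty alcohol for it. AGPS (ENSG00000018510.15, chromosome 2, 177392644 to 177559299, plus strand, start codon at chr2:177392790-177392792) stood at 32.2 CPM for sh control, 32.7 for sh1088, 30.0 for sh1196, 25.03 for pCDH control and 36.0 for R1A. It was the steadiest of the 10 genes, with 1.44-fold between its lowest and highest library. Its knockdown change was -0.00478 (SE 0.44, edgeR adjusted p = 0.998), and its overexpression ratio was 0.53 (0.33 to 0.73). NFE2L2, which encodes the antioxidant regulator NRF2, overlaps AGPS on the opposite strand and held between 372 and 679 expected counts.

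FAR1 (ENSG00000197601.13, chromosome 11, 13668670 to 13732346, plus strand, start codon at chr11:13694766-13694768) stood at 31.4 CPM for sh control, 28.2 for sh1088, 34.1 for sh1196, 15.3 for pCDH control and 35.1 for R1A. As for ACSL4, the pCDH control was the low library, and the counting intervals of the other 4 overlapped in part. Knockdown stood at 0.02 (SE 0.44, edgeR adjusted p = 0.992), with the hairpins on opposite sides of 0. R1A was 2.30-fold higher than the pCDH control, a log2 ratio of 1.20 (0.98 to 1.43), whereas against the sh control the ratio of 0.19 had an interval that spans 0 (-0.04 to 0.42).

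VDAC2 (ENSG00000165637.13), a channel of the outer mitochondrial membrane and a known target of the ferroptosis inducer erastin, lies on chromosome 10 (75210154 to 75231448, plus strand, start codon at chr10:75211159-75211161). It stood at 21.7 CPM for sh control, 18.1 for sh1088, 9.47 for sh1196, 29 for pCDH control and 10.4 for R1A. Libraries sh1196 and R1A were low and not separated from each other, and sh1088 was not separated from the sh control. The knockdown mean was 13.8 ± 6.11 CPM (SD, n = 2). Knockdown stood at -0.62 on the log2 scale (SE 0.52, edgeR adjusted p = 0.858), at -0.21 (-0.53 to 0.10) for sh1088 and -1.14 (-1.48 to -0.79) for sh1196. R1A was 2.79-fold lower than the pCDH control at -1.48 (-1.77 to -1.19) and also lower than the sh control at -1.04 (-1.38 to -0.69). VDAC2 was thus low both in 1 depleted library and in the overexpression library. GENCODE 29 lists 4 pseudogenes named after VDAC2, and whether reads were shared with or lost to them was not tested.

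**Figure D2:**
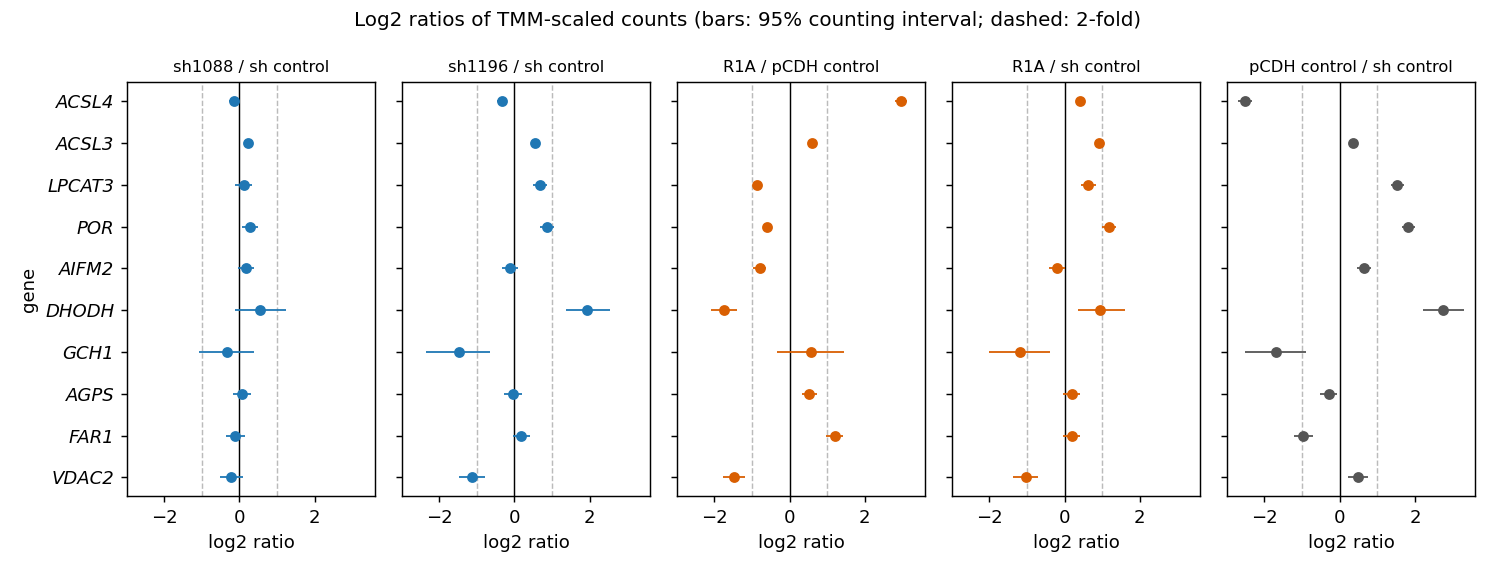
Log2 ratios of TMM-scaled counts for the 10 genes in 5 pairs of libraries (first library over second), with bars for the 95% counting interval and dashed lines at 2-fold. In the pair sh1088 over sh control no gene passes 2-fold, while in R1A over pCDH control ACSL4 (2.96) and FAR1 (1.20) lie above it and DHODH (-1.74) and VDAC2 (-1.48) below it.

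As a set, the 10 genes were not called in knockdown. edgeR called 0 of them and 0 of all 14913 genes tested (0%), and DESeq2 and limma-voom called 0 of the 10 as well. At an unadjusted p under 0.05 in edgeR there were also 0 of the 10, against 3.27% of all genes higher and 2.61% lower. The set had 6 genes above 0 and 4 below, with a median log2 fold change of 0.02, where 54.1% of all genes lay above 0 and their median was 0.07. Both hairpins were higher for 4 of the 10 genes, both were lower for 3, and they were opposite for 3. Among 9622 genes with a mean of at least 5 CPM these counts were 3414, 3496 and 2712. That limit was not put on the 10 genes. DHODH (both higher) and GCH1 (both lower) miss it in sh1088 and its control. The hairpins share the 1 sh control library, so its value for a gene enters both ratios. The hairpins were also unequal: of the 8 genes with a mean of at least 5 CPM in sh1088 and its control, 0 were 2-fold higher (3.3% of all genes) and 0 were 2-fold lower (3.02%). In sh1196, of 9 such genes, DHODH was 2-fold higher (11.8% of all genes) and VDAC2 2-fold lower (11.7%).

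For overexpression, which is 1 library against 1 and has no replicate check, 2 of the 9 genes with a mean of at least 5 CPM were at least 2-fold higher than in the pCDH control (ACSL4 and FAR1), against 14.8% of all genes. Another 2 were at least 2-fold lower (DHODH and VDAC2), against 14% of all genes. In number these differ little from the background. The median of the 9 was -0.60, where that of all 10841 genes was 0.06. By direction, ACSL4, FAR1, ACSL3 and AGPS were higher in R1A, the last 2 of them below 0 by TPM and with the GC trend taken out. LPCAT3, AIFM2, DHODH, VDAC2 and POR were lower, POR above 0 under those same settings and LPCAT3, DHODH and POR above 0 with the sh control as base. With that base, of 8 genes, POR was at least 2-fold higher (9.64% of all genes) and VDAC2 at least 2-fold lower (9.94%). In the authors' deposited table ACSL4 (log2 fold change 2.94) and FAR1 (1.35) are classed as up, a class that holds 13.7% of the genes with an adjusted p in that table. Their table classes LPCAT3 (-0.78), POR (-0.73), AIFM2 (-1.02), DHODH (-1.63) and VDAC2 (-1.42) as down, a class of 11.7%. It compares these 2 libraries, not the conditions. For knockdown the authors' deposited table puts none of the 10 genes in its up class (1.69% of genes) or its down class (1.77%).

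The 2 controls, which carry no change of RBMS1 by their labels, differed from each other at 2-fold in a larger share of genes than any arm did from its own control. Of 9 genes, LPCAT3, POR and DHODH were at least 2-fold higher in the pCDH control than in the sh control (18.8% of all genes), and ACSL4 was at least 2-fold lower (17.3%). LPCAT3 stood at 1.53 (1.35 to 1.70), POR at 1.83 (1.66 to 2.0) and ACSL4 at -2.51 (-2.69 to -2.33). The vector system, and anything else that separates the controls, cannot be told apart here. Fragment length, taken as the median of gene length less effective length, was longest in the pCDH control (51.3 nt) and shortest in R1A (39.9 nt). It was 45.0 nt in the sh control, 42.4 nt in sh1088 and 45.3 nt in sh1196, and its part in the ratios was not tested. The comparisons of R1A with the pCDH control and of the pCDH control with the sh control share the pCDH library, so their values for a gene are not independent.

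A fit over all 5 libraries asked which genes follow the RBMS1 level, coded as -1 for knockdown, 0 for control and 1 for overexpression, and allowed the vector systems to differ. edgeR called 0 of the 10 genes, against 0.00632% of 15827 genes. At an unadjusted p under 0.05 there were 2, DHODH and ACSL4, against 6.61% of all genes. DHODH stood at -1.52 per level (SE 0.51, edgeR adjusted p = 0.729) and ACSL4 at 1.49 (SE 0.64, edgeR adjusted p = 0.729). DESeq2 and limma-voom called 0 of the 10. Without the pCDH control the ACSL4 value was 0.26 (edgeR adjusted p = 0.937), and that of DHODH was -1.38 (edgeR adjusted p = 0.833). DHODH kept a negative value with each of the 5 libraries left out in turn, from -1.80 to -1.17. Without the pCDH control or R1A the value comes from the knockdown comparison alone, with its sign turned. Without the sh control it comes from R1A against the pCDH control alone. Those values restate comparisons given above and are no separate check of stability. The leave-out fits still adjust for the vector system, so they do not test the choice of control. Against the other control the DHODH direction turned, at -1.30 for the hairpins against the pCDH control and 0.95 for R1A against the sh control.

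GC content moved with the ratios that hold the pCDH control. Across 10321 nuclear protein-coding genes, which are not independent replicates, the ratio of R1A to the pCDH control was lower for GC-rich transcripts (Spearman rho = -0.58), and rho was 0.03 for sh1088 and 0.13 for sh1196 against the sh control. Against the pCDH control the hairpin libraries also had negative values, -0.43 for sh1088 and -0.39 for sh1196, and the pCDH control against the sh control had 0.40. With R1A set against the sh control rho was -0.12. Its part in the results was not tested. The genes that were higher in R1A have AT-rich transcripts, with 37.4% GC for ACSL4, 38.1% for ACSL3, 37.1% for AGPS and 31.3% for FAR1. Those that were lower have 45.5% for VDAC2, 52.1% for LPCAT3, 53.1% for DHODH, 56.1% for AIFM2 and 61.3% for POR. With the GC trend of all genes taken out, ACSL4 stood at 2.24 (2.08 to 2.41), DHODH at -1.54 (-1.89 to -1.21) and VDAC2 at -1.78 (-2.07 to -1.49). FAR1 stood within 2-fold at 0.27 (0.04 to 0.49), and LPCAT3 and AIFM2 stood at -0.72 and -0.40. ACSL3, POR and AGPS had the opposite sign, at -0.10, 0.12 and -0.20. With that trend out, ACSL4, DHODH and VDAC2 were thus the genes of the set that stayed beyond 2-fold.

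**Figure D3:**
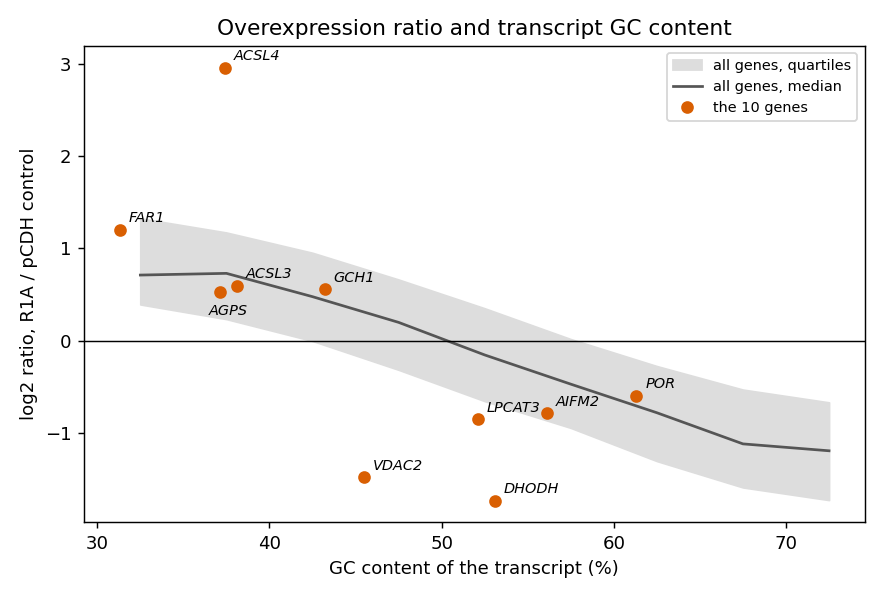
Log2 ratio of R1A to the pCDH control against the GC content of each gene's transcript (%), with the median (line) and quartiles (band) of all nuclear protein-coding genes in bins of 5 percentage points and 1 point for each of the 10 genes. ACSL4 lies above the band and VDAC2, DHODH and LPCAT3 below it, while ACSL3, AGPS, GCH1, AIFM2 and POR lie within it. FAR1, at 31.3% GC, lies to the left of the band, which begins at the lowest bin centre of 32.5%.

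Levels of different genes can be compared only per length. By the authors' TPM, which divides by effective gene length, ACSL3 ranked first of the 10 in 4 libraries and second in R1A, where POR ranked first (61.9 against 60.6 TPM). GCH1 ranked last in all 5, between 0.37 and 0.93 TPM. ACSL4 had rank 3 or 4 in 4 libraries and rank 8 in the pCDH control. By scaled counts per kb of coding sequence, ACSL3 was first in all 5 libraries and ACSL4 second in all but the pCDH control, where it had rank 9. POR then had ranks from 3 to 7.

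These TPM values carry a length that differed between the libraries. RSEM weights the length of a gene by the transcripts to which it assigns the counts. For ACSL4 that length was 4577 nt in the sh control, 3221 nt in sh1088, 2490 nt in sh1196, 1178 nt in the pCDH control and 2770 nt in R1A. For ACSL3 it ran from 1614 nt in the pCDH control to 4181 nt in the sh control, and for AGPS from 1264 nt to 3194 nt in the same libraries. POR went the other way, from 929 nt in R1A to 2256 nt in the pCDH control. AIFM2 was steady, between 2515 and 2858 nt. The median over 10054 genes lay between 1317 nt in the pCDH control and 1560 nt in the sh control, so its extremes were in the same libraries as those of ACSL4, over a smaller range. The part of this length in the TPM results was not tested. Expected counts did not carry this length, and 49 of the 50 member values were whole numbers with a posterior SD of at most 0.09 counts.

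**Figure D4:**
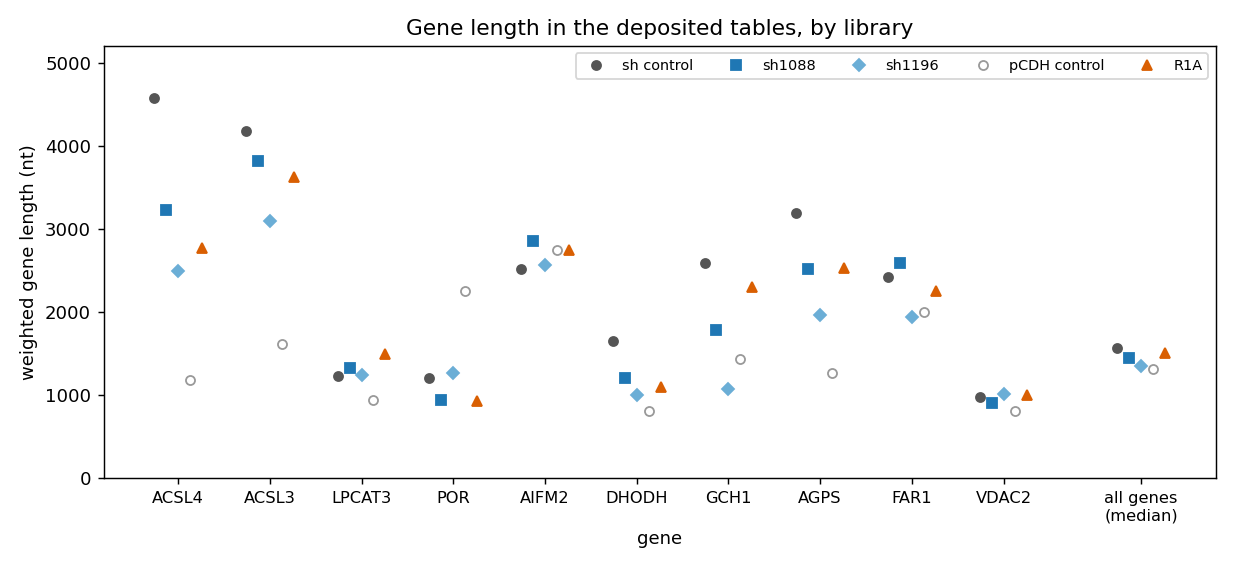
Weighted gene length (nt) in the deposited tables for each of the 10 genes in the 5 libraries, with the median over 10054 genes at the right. The length of ACSL4 lies between 1178 nt in the pCDH control and 4577 nt in the sh control, while that of AIFM2 stays between 2515 and 2858 nt.

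Other genes of these pathways were grouped in 7 lists, whose counts stand beside those of all genes given above. In knockdown 54.1% of all genes lay above 0 with a median of 0.07, and in overexpression 14.8% were at least 2-fold higher and 14% lower with a median of 0.06. For lipid remodelling, 17 genes were listed and 16 tested in knockdown, of which edgeR called 0. At an unadjusted p under 0.05, MBOAT1, an acyltransferase, was higher at 1.70 (SE 0.57, edgeR adjusted p = 0.828), with 4.61 CPM for sh control, 12.4 for sh1088 and 16.9 for sh1196. LPCAT4 stood at 0.69. In overexpression 2 of 15 were at least 2-fold higher and 3 were at least 2-fold lower. FADS2, a desaturase of polyunsaturated fatty acids, stood at -1.49 (-1.53 to -1.44) and PLA2G6, a phospholipase, at -2.05 (-2.77 to -1.39). FADS2 had 1032 CPM in the pCDH control and between 199 and 367 in the other 4 libraries, so it too stood apart in that control. Between the controls, 6 of the 15 genes were at least 2-fold higher in the pCDH control (18.8% of all genes) and 0 were lower (17.3%).

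The lipid oxidation list held lipoxygenases, NADPH oxidases and cytochrome b5 with its reductases. Of 16 genes 3 had 0 counts in all 5 libraries (ALOX12, ALOX15 and NOX4), and 11 were tested in knockdown with 0 called. The electron carriers CYB5A and CYB5B stood at -0.90 (SE 0.45) and -0.77 (SE 0.53), neither past the threshold. In overexpression CYBA, a subunit of NADPH oxidases, stood at -1.32 (-1.40 to -1.23). The oxidase NOX1 stood at 3.99 (3.00 to 5.16), with 0.52 CPM in the pCDH control and 8.18 in R1A, although sh1088 had 7.18 and sh1196 had 0. The lipoxygenases were low throughout: ALOX5, the most abundant by CPM in R1A, had 4.30 CPM there and between 0.17 and 3.23 in the others.

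For synthesis and reduction of coenzyme Q, 19 genes were tested in knockdown and 0 called, with 13 above 0 and a median of 0.27. AIFM1, the mitochondrial paralog of AIFM2, stood at 0.73 (SE 0.53) and PDSS1, which makes the isoprenoid tail, at 0.86 (SE 0.67), neither past the threshold. In overexpression COQ10B, a coenzyme Q binding protein, stood at 1.54 (1.20 to 1.90) and PDSS2 at 1.20 (0.82 to 1.59), the 2 genes of 19 that were at least 2-fold higher (14.8% of all genes), and 0 were lower (14%). The median of that list was -0.16. The ring-modifying enzymes COQ3, COQ5, COQ6 and COQ7 lay between 4.25 and 40.8 CPM in all libraries.

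DHODH works in pyrimidine synthesis, and of the 6 other genes of that list 5 were above 0 in knockdown, where 54.1% of all genes were, with a median of 0.47 and 0 called. CTPS1, a CTP synthase, stood at 0.78 (SE 0.60) and CAD, which holds the first steps, at 0.81 (SE 0.64). CAD was high in sh1196 (103 CPM) and not in sh1088 (39.5, against 41.7 in the sh control). DHODH was likewise higher in sh1196 than in sh1088. Its ratio to the sh control was above 0 in both, though for sh1088 the interval spans 0 (-0.11 to 1.25). UMPS, the step after DHODH, stood at 1.21 (1.02 to 1.41) in overexpression and CTPS2 at 1.48 (1.14 to 1.82), whereas DHODH was lower there. These were the 2 of 6 genes at least 2-fold higher (14.8% of all genes). Another 1 of the 6, UCK1, was at least 2-fold lower at -1.04 (14% of all genes), so DHODH was not alone in that direction.

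Of the 7 other genes of tetrahydrobiopterin metabolism, 5 were below 0 in knockdown, with a median of -0.55 and 0 called. GCHFR, the feedback regulator that binds GCH1, stood at -2.27 (SE 0.88, edgeR adjusted p = 0.828), with 6.61 CPM for sh control, 2.08 for sh1088 and 0.62 for sh1196. PCBD2, a recycling enzyme, stood at -0.69 (SE 0.48). In overexpression PCBD2 stood at 1.53 (1.08 to 1.98) and PTS, the step after GCH1, at 1.29 (1.04 to 1.54), the 2 of 5 that were at least 2-fold higher. GCHFR was at 0.45 (-0.40 to 1.29).

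For ether lipids and peroxisomes, 11 of 12 symbols matched and 10 genes were tested in knockdown with 0 called. PEX19, a chaperone of peroxisomal membrane proteins, stood at -1.03 (SE 0.43, edgeR adjusted p = 0.828), and PEX3, its docking partner, at 1.10 (SE 0.56). In overexpression PEX14 stood at -2.59 (-2.92 to -2.27) and PEX10 at -1.74 (-2.06 to -1.43), both of which had their highest level in the pCDH control, at 44.3 and 28.5 CPM. With TMEM189 at -1.30 they were the 3 of 10 genes at least 2-fold lower (14% of all genes), and 1 was at least 2-fold higher (14.8%). GNPAT, the acyltransferase that acts before AGPS, was at 0.84. Of the list of VDAC and outer membrane genes, 6 were tested with 0 called. VDAC3 stood at -0.41 (SE 0.44) and HK1, a hexokinase that binds VDAC, at 0.72 (SE 0.73). In overexpression VDAC3 was at 0.99 (0.84 to 1.15), VDAC1 at 0.65 and the ubiquitin ligase NEDD4 at 0.79 (0.64 to 0.93), set beside -1.48 for VDAC2. VDAC1 had its lowest level in the pCDH control at 42.4 CPM, the library in which VDAC2 had its highest.

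By likeness of pattern over the 5 libraries, among 10564 other genes, the closest to ACSL4 were SDHD, ZNF770 and POT1, with root mean square differences of 0.16, 0.17 and 0.20 in centred log2 CPM. The closest to DHODH were CHST14, COL18A1 and NOMO1, between 0.12 and 0.13, and the closest to POR were ABCA7, TNKS1BP1 and CREBBP, at 0.09 each. The span of ACSL4 over the 5 libraries, 2.94 on the log2 scale, exceeded that of 96.0% of 10565 genes, and that of DHODH, 2.61, exceeded 94.1%. AGPS, at 0.52, exceeded 7.35%, and the median gene spanned 1.17.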

How the data were processed

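The 5 sample tables hold expected counts per gene that the authors deposited in the columns RSEM writes, per the file headers. The authors also deposited TPM and FPKM, which divide by effective length per the file headers (no result uses FPKM), and 2 comparison tables whose columns include, per the file headers, the same expected counts, p-values, a log2 fold change, a score for the test and a signal (the mean of scaled counts). Tools listed in the submitters' processing notes are DESeq2, RSEM 1.3.1, STAR 2.4.2 and Bowtie, without their roles. The genome build is not given in the sources used here. GENCODE release 29 (GRCh38) held 58656 of the gene identifiers, version numbers aside, and lacked 273.

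Expected counts were rounded. Knockdown was fitted with edgeR 4.0.16 (quasi-likelihood, robust, TMM, filterByExpr, Benjamini-Hochberg at 0.05, 1 residual degree of freedom) in R 4.3.3, and its single sh control is taken to vary as the hairpin libraries do. The RBMS1 level fit leaves 2 residual degrees of freedom. In both fits edgeR draws the spread of each gene toward a trend over all genes tested, so a p-value does not rest on that gene's spread alone. The SE given is the absolute log2 change divided by the square root of the F statistic. Ratios between 2 libraries use TMM over that pair, with exact conditional 95% counting intervals and no p-value, and counts at 2-fold take genes with a mean of at least 5 CPM. GC content is that of the longest coding transcript, and its trend a lowess fit. DESeq2 1.42.0, limma-voom (limma 3.58.1), other scalings, no filter, other controls, TPM (pseudocounts 1 and 0.1) and leaving out libraries served as alternatives.

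The 10 genes and the pathway lists were chosen with earlier results of these data known. Named beside the 10 genes and RBMS1 are, per list, up to 2 genes with the smallest knockdown p and up to 2 with the overexpression interval farthest from 0, and the 3 genes most alike in pattern to each of the 3 members of widest range. Likeness uses log2 CPM with a prior count of 2. Beyond this rule, ALOX5, ALOX12, ALOX15, NOX4, COQ3, COQ5, COQ6, COQ7, UCK1, TMEM189, GNPAT and VDAC1 were chosen after their values were seen. The start codon contexts of 2 of the 10 genes are not reported here.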

Additional observations from a re-analysis of the deposited data

How the results depend on the processing

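No paired analysis was possible because the labels give the groups no shared replicate numbers. No alternative called any of the 10 genes in knockdown or in the level fit. Not counting GCH1 in overexpression, which is given below, 51 values of single genes changed sign. In addition 26 counts moved by over 1.5 times, and the cause was not tested. In knockdown, edgeR called 0 of all genes, against 27 with library size scaling, 14 by DESeq2, 102 without a filter, 4 over nuclear protein-coding genes only and 93 with the pCDH control. With library size scaling, where all genes had a median of 0.62 in place of 0.07, ACSL4 stood at 0.27 and AGPS at 0.53. AGPS stood at 0.0196 with upper-quartile scaling and 0.0118 without a filter, and by DESeq2 AIFM2 stood at -0.00538 and FAR1 at -0.00736. With pCDH as the control of the hairpins, ACSL4 stood at 2.30 (edgeR adjusted p = 0.0899), LPCAT3 at -1.08, POR at -1.20, AIFM2 at -0.57, DHODH at -1.30, GCH1 at 0.92 and AGPS at 0.34. With both controls together ACSL4 stood at 0.52, LPCAT3 at -0.54, POR at -0.58, AIFM2 at -0.31, DHODH at -0.54 and AGPS at 0.15. Leaving out each hairpin library in turn gave -0.11 to 0.18 for AIFM2, -0.0433 to 0.0691 for AGPS and -0.11 to 0.18 for FAR1. By TPM with pseudocounts of 1 and 0.1, where the medians of all genes were 0.78 and 1.16, all 10 genes lay above 0 in knockdown, against 6 of the 10 by scaled counts: ACSL4 at 1.42 and 1.55, GCH1 at 0.40 and 0.95, AGPS at 1.31 and 1.61, and VDAC2 at 0.39 and 0.45.

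In overexpression, 1605 genes were at least 2-fold higher and 1523 lower. With the sh control as control these were 976 and 1007, with LPCAT3 at 0.63, POR at 1.19, DHODH at 0.95 and GCH1 at -1.18. By TPM they were 333 and 3869 (pseudocount 1) and 428 and 4323 (pseudocount 0.1), where the medians of all genes were -0.72 and -0.79. TPM put 3 of the 10 genes above 0 in place of 5. ACSL3 stood at -1.27 and -1.28, POR at 0.0336 and 0.0341, AGPS at -1.10 and -1.18 and GCH1 at -0.34 and -0.73. By TPM ACSL4 fell to 0.97 and 1.00, while DHODH stood at -2.64 and -2.87 and VDAC2 at -2.32 and -2.47. With the GC trend taken out 1079 genes were higher and 998 lower, and ACSL3 stood at -0.10, POR at 0.12 and AGPS at -0.20. In the level fit, edgeR called 1 of all genes, against 36 with library size scaling, 56 by DESeq2, 0 by limma-voom and 89 without a filter. Library size scaling put 3 of the 10 genes above 0 in place of 5, with ACSL3 at -0.34 and AGPS at -0.13, and upper-quartile scaling put ACSL3 at -0.000727. Leaving out each of the 5 libraries in turn called between 0 (without the pCDH control) and 136 genes (without sh1088), with 40 without the sh control, 30 without sh1196 and 4 without R1A. It gave -0.39 to 0.59 for ACSL3, -0.0273 to 1.20 for FAR1, -1.48 to 0.62 for VDAC2 and 0.25 to 2.95 for ACSL4, the last lowest without R1A. ACSL3 and FAR1 were below 0 and VDAC2 above 0 without the pCDH control or without R1A. Without the pCDH control, R1A or the sh control, the value comes from only 1 arm and restates its comparison. Depth limited GCH1 and DHODH most, with 20 to 36 and 31 to 427 counts.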
